A study of Mus musculus with 6 samples.

Results

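The PYHIN genes, which encode interferon-inducible sensors and regulators of nucleic acid responses, were read in RAW 264.7 cells after a GapmeR against the long noncoding RNA Mist. The family was taken as 10 genes, Ifi203, Ifi204, Ifi205, Ifi207, Ifi208, Ifi209, Ifi211, Ifi213, Mndal and Aim2. Every probe set whose annotated gene symbol includes a member was used, which gave 10 probe sets of the 41345 on the array. Of the 10 genes, 8 had a probe set of their own and 2 did not: Ifi211 was read at a probe set shared with Ifi204, and Ifi203 at a probe set shared with the pseudogene Ifi203-ps and the locus LOC100862473. The family was selected on the log2 differences of this same contrast, in which Ifi209 and Ifi205 were among the largest, so its differences are a description, and a count of members that passed a threshold is no evidence about the family.

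RAW 264.7 is a macrophage-like cell line derived from a tumour of a BALB/c mouse. The Mist-targeted group holds 3 samples that received a locked nucleic acid GapmeR against Mist, and the Control group holds 3 that received a non-targeting GapmeR. All 6 were transfected with 50 nM and collected after 48 h, so both groups carried a transfected oligonucleotide, and there was no untransfected group among the samples analysed. The labels name a single Mist GapmeR, and they do not state whether the replicates were separate cultures, so the errors given here measure the spread between samples, which may be technical. Values were log2 expression from 1 array per sample. No probe set carried the name Mist in the annotation used, so the level of the targeted RNA itself was not analysed here. Array medians lay between 4.468 and 4.497, and the number of arrays limits the precision. The 10 macrophage markers averaged 9.83 to 9.93 on the Mist-targeted arrays and 9.74 to 9.81 on the Control arrays. In either group, 0 of them were below the array median on all arrays. Mertk came close to the medians, with 4.49 on Mist-targeted replicate 2 and 4.53 on Control replicate 3. Of these 10 markers 1 passed (limma, 0.254% of all probe sets passed): Fcgr1, encoding an Fc receptor for IgG, had 10.19, 10.01 and 10.10 in Mist-targeted samples, against 9.07, 9.14 and 9.06 in Control samples (1.01 ± 0.086, SE; adjusted p = 0.012). The median difference of the 10 markers was 0.00013. Markers of B cells averaged 3.92 to 4.01 in Mist-targeted and 3.92 to 3.98 in Control samples, with all 4 measured markers below the array median on every array. T and NK cell, neutrophil, dendritic cell and fibroblast markers averaged between 3.95 and 4.35 on Mist-targeted and between 4.02 and 4.27 on Control arrays. In either group, 5 of 6 T and NK cell and 5 of 6 neutrophil markers were below the array median on all arrays. The same held for 3 of 4 fibroblast markers in either group. Of 4 dendritic cell markers it held for 2 in Mist-targeted and 3 in Control samples.

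Typical PYHIN proteins join an N-terminal pyrin domain, which pairs with the pyrin domains of partner proteins, to C-terminal HIN domains, which bind DNA. Not every protein of the family has both kinds of domain. The best characterised is AIM2, which binds double-stranded DNA in the cytosol and recruits the adaptor ASC (encoded by Pycard) and caspase-1, which matures interleukins 1 beta and 18 and opens the way to pyroptosis. In mouse the family has expanded into a cluster on chromosome 1, many of its genes are induced by type I interferon, and the cluster varies between inbred strains. Neighbouring genes of the cluster are close copies, so probes of one can pick up RNA of another. Probe sequences were not used here.

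The members lie in 1 cluster, and the stretch around a motif that most of their promoter windows share is shown first. Of the 10 members, 9 had a promoter window of 300 bases in the RefSeq table (build GRCm38.p6, strain C57BL/6J, 250 bases before to 50 after the annotated start). Ifi204 had no entry. Motifs were searched on both strands, the interferon-stimulated response element GAAANNGAA and a core AAATNGAAA, which overlaps it and was chosen after the sequences had been read. In the lines below, 50 bases around the match are printed 5′ to 3′, with bases of either motif in capitals.
Ifi209, chr1:173630761-173630810, plus strand: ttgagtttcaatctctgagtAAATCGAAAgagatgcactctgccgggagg
Ifi205, chr1:174031859-174031908, minus strand: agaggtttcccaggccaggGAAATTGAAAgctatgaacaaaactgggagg
Ifi208, chr1:173673588-173673637, plus strand: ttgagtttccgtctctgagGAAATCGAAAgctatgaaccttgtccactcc
Ifi211, chr1:173913053-173913102, minus strand: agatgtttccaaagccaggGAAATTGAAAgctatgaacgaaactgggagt
Mndal, chr1:173880193-173880242, minus strand: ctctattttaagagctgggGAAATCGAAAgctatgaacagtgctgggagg
Ifi207, chr1:173741820-173741869, minus strand: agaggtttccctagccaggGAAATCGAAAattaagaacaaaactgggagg
Ifi203, chr1:173942497-173942546, minus strand: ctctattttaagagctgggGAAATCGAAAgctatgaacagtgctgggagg
Ifi213, chr1:173599315-173599364, minus strand: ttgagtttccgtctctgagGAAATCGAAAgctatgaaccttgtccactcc
Ifi214, chr1:173536006-173536055, minus strand: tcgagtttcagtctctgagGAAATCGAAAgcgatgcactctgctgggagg
The element GAAANNGAA was found in 7 of the 9 members with a window, against 8.56% of all 32851 promoter windows in the table, and the core AAATNGAAA in 8 of the 9, against 1.87%. The units are unlike: the 9 members have 11 windows, and a member counts if any of its windows holds the motif. The percentages count single windows. Both motifs had first been searched in a form 1 base longer, the element ending in a further A and the core in a further G. In that form the element was found in 7 of the 9 members, against 3.44% of all windows, and the core in 7 of the 9, against 0.432%, Ifi207 being the member that held the shorter core and not the longer. Windows of close copies are not independent, and the core was read off these genes, so the second count is a description only. Ifi209 held the core but not the element, and the other 7 held both. The core began 78 bases before the start in Ifi209, 133 in Ifi205, 57 in Ifi208, 72 in Ifi213, 40 in Ifi207, and 36, 35 and 34 bases before it in Ifi211, Mndal and Ifi203. Mndal and Ifi203 are listed with more than 1 start, and the value is for the start whose window holds the core. A further motif, the gamma-activated site TTCNNNGAA, was found in 0 of the 9 members and in 8.30% of all windows. A match to letters is not a binding site, and no match says only that the letters are not in that window.

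The printed stretches also show how close the copies are. Of 50 bases, 0 differed between Mndal and Ifi203 and 0 between Ifi208 and Ifi213. Ifi205 differed from Ifi211 at 5 bases and from Ifi207 at 6, whereas Ifi209 differed from Ifi205 at 22 and was closest to Ifi214, a further family gene, at 5. The members with the largest differences in expression, Ifi209 and Ifi205, did not carry the most similar stretches.

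Neither the element nor the core was found in the window of Aim2, which is printed whole below. Both were also absent from the window of Ifi202b, a further family gene with a log2 difference of 0.68. Whether the motifs go with the differences in expression was not tested.
Aim2, chr1:173420354-173420653, plus strand: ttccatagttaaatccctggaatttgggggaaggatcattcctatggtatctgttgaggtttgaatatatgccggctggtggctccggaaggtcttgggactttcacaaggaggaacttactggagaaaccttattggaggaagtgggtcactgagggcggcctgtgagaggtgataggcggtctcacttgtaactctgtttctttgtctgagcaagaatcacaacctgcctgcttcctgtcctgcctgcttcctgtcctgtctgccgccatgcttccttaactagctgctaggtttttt

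**Figure D1:**
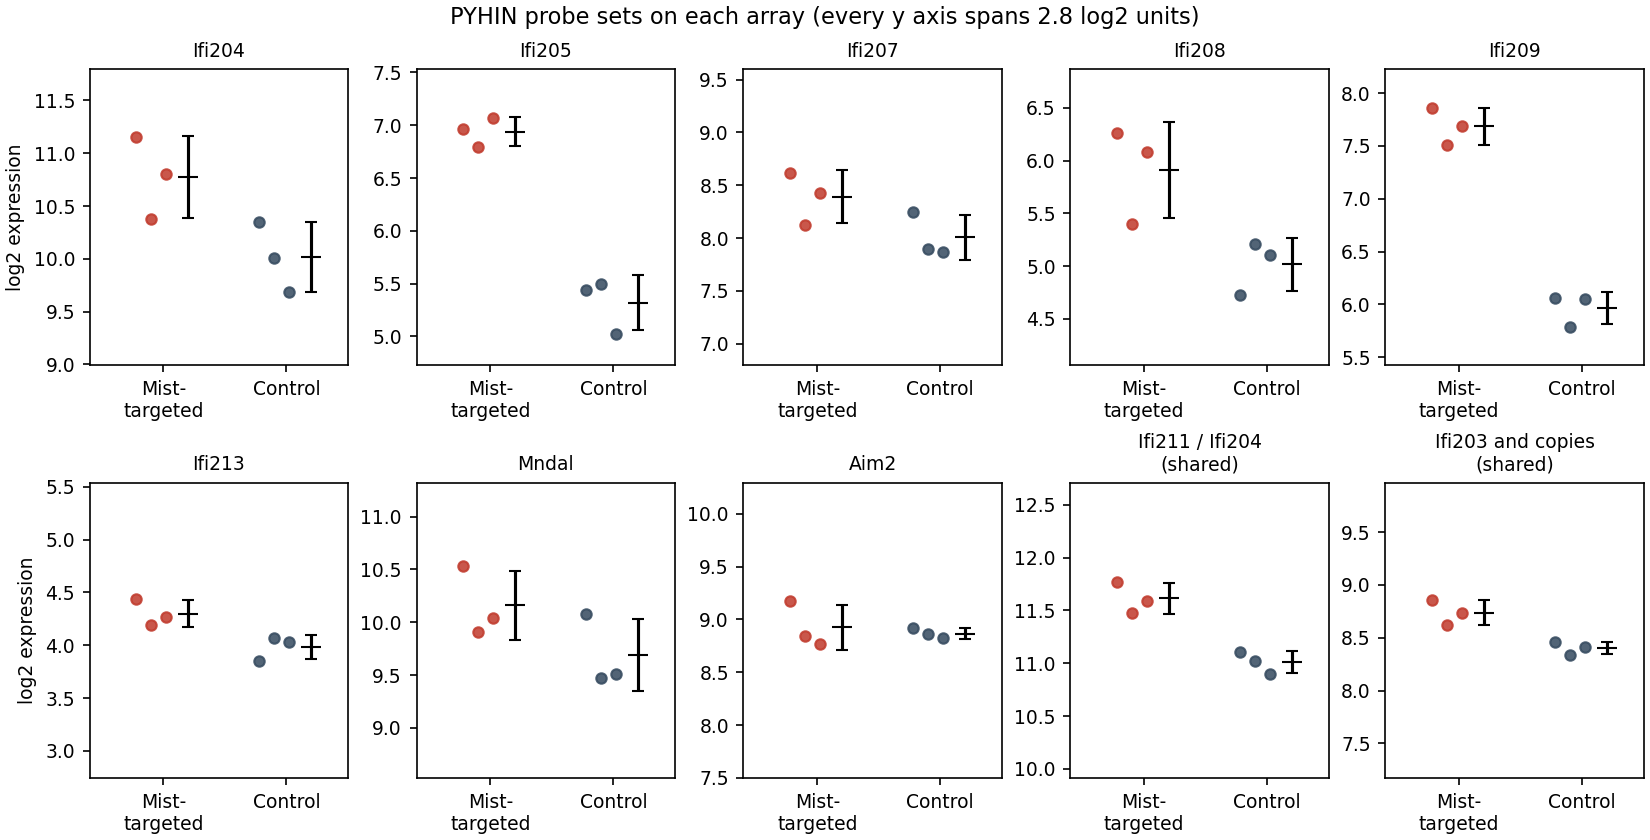
Log2 expression (y axis) of the 10 PYHIN probe sets, 1 panel each, with a point per array (3 Mist-targeted arrays on the left in red, 3 Control arrays on the right in dark blue) and the mean with its SD beside the points. Ifi209 and Ifi205 have the widest gaps between groups, and the Aim2 points overlap.

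Ifi209, listed with the synonyms Pyhin1 and Ifix, had the largest difference of the family. Its log2 values were 7.86, 7.51 and 7.69 on the Mist-targeted arrays, against 6.06, 5.79 and 6.05 on the Control arrays. The lowest Mist-targeted array lay well above the highest Control array. Ifi209 was 3.29-fold higher with the Mist-targeted GapmeR. The log2 difference was 1.72 ± 0.12 (SE, n = 3 per group, limma, 95% interval 1.43 to 2.004). It was the 4th largest rise among the 41345 probe sets, while falls reached -3.005. Ifi205, whose protein p205 is known from mouse macrophages to control the level of ASC, came next. It had 6.96, 6.79 and 7.07 in Mist-targeted samples, against 5.44, 5.50 and 5.02 in Control samples. Again the groups were separated by a wide gap. The difference was 1.62 ± 0.15 (SE, n = 3 per group, 95% interval 1.28 to 1.96), or 3.07-fold. It was the 5th largest rise on the array.

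Of the 8 members read at their own probe set, these 2 rose at an adjusted p under 0.05 (limma, Benjamini-Hochberg over all probe sets), 0 fell and 6 did not pass, and 0.254% of all probe sets passed in either direction (0.128% rose). The 2 shared probe sets did not pass. When only the 25335 probe sets listed with a gene were tested, 3 of the 8 rose, Ifi208 being the addition, while 2.85% of those probe sets passed. Without moderation of the variances both calls were lost, at the same differences. With replicate number as a block both were lost too (limma, adjusted p = 0.072 for Ifi209 and 0.12 for Ifi205). The labels do not say whether same-numbered samples were paired. The calls also depended on single arrays. Leaving out 1 array at a time, Ifi209 kept a difference between 1.63 and 1.81 and was called in 4 of 6 fits, losing the call without Mist-targeted replicate 3 (1.72) or Control replicate 2 (1.63). Ifi205 kept a difference between 1.47 and 1.71 and was called in 2 of 6, losing the call without Mist-targeted replicate 1 (1.61), Mist-targeted replicate 3 (1.55), Control replicate 1 (1.68) or Control replicate 2 (1.71).

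A middle group was formed by Ifi208, Ifi204 and the probe set shared by Ifi211 and Ifi204. Ifi208, also listed as Pydc3, had 6.26, 5.40 and 6.08 on the Mist-targeted arrays, against 4.73, 5.21 and 5.11 on the Control arrays. Mist-targeted replicate 2 lay close to the Control values, and the other Mist-targeted arrays lay far above them. The difference was 0.90 ± 0.23 (SE; 95% interval 0.36 to 1.44), and without Mist-targeted replicate 2 it was 1.16. Ifi204 encodes p204, a mouse sensor set beside human IFI16 in the induction of interferon by DNA. It had 11.15, 10.38 and 10.80 with the Mist-targeted GapmeR, against 10.35, 10.004 and 9.69 with the Control GapmeR. The groups did not overlap, but the lowest Mist-targeted and the highest Control value were nearly equal. The difference was 0.76 ± 0.23 (SE; 95% interval 0.23 to 1.29).

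The probe set shared by Ifi211 and Ifi204 was tighter. It had 11.77, 11.48 and 11.59 in Mist-targeted samples, against 11.11, 11.02 and 10.90 in Control samples. Groups were clearly apart, with a difference of 0.60 ± 0.11 (SE; 95% interval 0.35 to 0.85), which cannot be assigned to Ifi211, also listed as Mnda, or to Ifi204. The probe set of Ifi204 alone and the shared one differed in the same direction, the shared one with the narrower interval.

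Smaller differences were seen in 4 further probe sets. Mndal, named for its likeness to the myeloid nuclear differentiation antigen, had 10.53, 9.91 and 10.04 on the Mist-targeted arrays, against 10.08, 9.47 and 9.51 on the Control arrays. The groups overlapped, since Control replicate 1 was above 2 of the Mist-targeted arrays. The difference was 0.47 ± 0.21 (SE; 95% interval -0.03 to 0.97). Ifi207, whose protein has been reported in mouse to stabilise STING, had 8.62, 8.12 and 8.43 in Mist-targeted samples, against 8.25, 7.90 and 7.87 in Control samples. Control replicate 1 again lay above the lowest Mist-targeted array, Mist-targeted replicate 2. The difference was 0.39 ± 0.16 (SE; 95% interval 0.02 to 0.76). The probe set shared by Ifi203, its pseudogene and LOC100862473 had 8.86, 8.62 and 8.73 in Mist-targeted samples, against 8.46, 8.34 and 8.41 in Control samples. The groups did not overlap, and the difference was 0.33 ± 0.094 (SE; 95% interval 0.11 to 0.55). Ifi213, also listed as Pydc4, had 4.44, 4.19 and 4.27 with the Mist-targeted GapmeR, against 3.85, 4.07 and 4.03 with the Control GapmeR. These values were below the array median on all 6 arrays, no measure of background was used, and the difference of 0.31 ± 0.11 (SE; 95% interval 0.07 to 0.56) may be understated.

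Aim2, the DNA-binding inflammasome sensor, was the member with the smallest difference. It had 9.17, 8.84 and 8.77 on the Mist-targeted arrays, against 8.92, 8.86 and 8.82 on the Control arrays. Only Mist-targeted replicate 1 lay above the Control arrays, and the other Mist-targeted arrays lay within or just below them. The difference was 0.06 ± 0.12 (SE, n = 3 per group; 95% interval -0.22 to 0.34), and it was -0.07 without Mist-targeted replicate 1. The interval of Aim2 and those of Ifi209 and Ifi205 did not meet. That is a description of members chosen on these same differences, and differences between members were not tested. Since RNA was measured in bulk, a change in the share of cells with a transcript and a change in its amount per cell cannot be told apart for any member.

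Across the family, 10 of 10 probe sets had a positive difference, as had 51.7% of all probe sets, and 7 of 10 had groups that did not overlap with Mist-targeted higher, as had 8.20% of all. The median difference was 0.62 over the 8 members with a probe set of their own and 0.54 over all 10 probe sets, against 0.0057 over all probe sets. Without Ifi209 and Ifi205 the other 8 probe sets had a median of 0.43 and ran between 0.06 and 0.90.

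**Figure D2:**
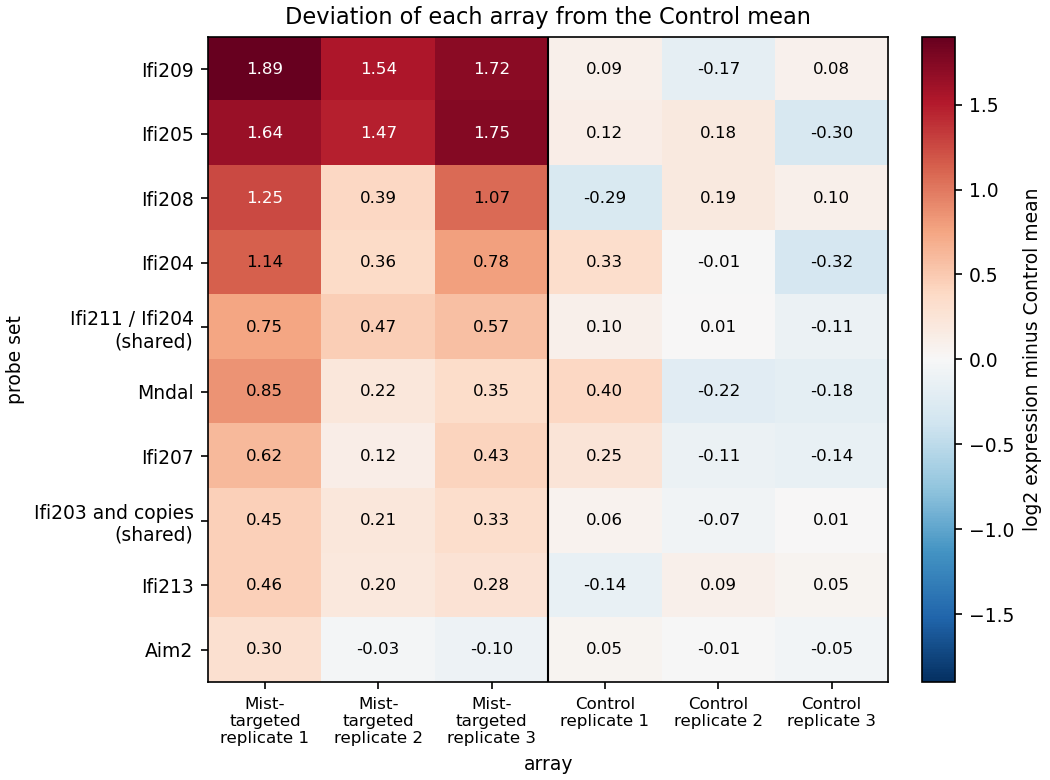
Heat map of log2 expression minus the Control mean for each PYHIN probe set (rows, sorted by difference) on each array (columns, Mist-targeted left of the line and Control right of it); red is above and blue below the Control mean, and each cell prints its value. Mist-targeted replicate 1 is the highest and replicate 2 the lowest Mist-targeted array in 9 of the 10 rows each.

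The members also varied together within a group, which the contrast between groups does not use. On Mist-targeted replicates 1, 2 and 3 the median deviation of the 10 probe sets from their Control means was 0.80, 0.29 and 0.50. Mist-targeted replicate 1 was the highest of its group in 9 of 10 probe sets (Ifi205 was the exception) and replicate 2 the lowest in 9 of 10 (Aim2 was the exception). Over all probe sets on the array, replicate 1 was the highest Mist-targeted array in 34.3% and replicate 2 the lowest in 33.1%. Among the 44 interferon-stimulated genes outside the family, described further on, replicate 1 was the highest Mist-targeted array in 20 and replicate 2 the lowest in 28, so a low replicate 2 was also common outside the family. The SD over the Mist-targeted arrays was above the difference for Aim2 (0.216 against 0.06) and below it for the other probe sets of the family. It came nearest for Mndal (0.329 against 0.47) and Ifi207 (0.251 against 0.39). The largest differences, of Ifi209 and Ifi205, were present on all 3 Mist-targeted arrays: Ifi209 stood 1.89, 1.54 and 1.72 above its Control mean and Ifi205 1.64, 1.47 and 1.75. On the Control arrays, replicate 1 was the highest in 7 of 10, against 33.8% of all probe sets, with median deviations of 0.09, -0.01 and -0.08 on replicates 1, 2 and 3. Copies that share probes would also move together, and their part in this was not tested.

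Further family genes with a probe set of their own were Ifi202b, Ifi214 and Ifi203-ps, and 0 of the 3 passed (limma; 0.254% of all probe sets passed). Ifi202b encodes p202, which has HIN domains but no pyrin domain and is known in mouse as an inhibitor of AIM2. It had 10.39, 9.96 and 10.27 on the Mist-targeted arrays, against 9.78, 9.43 and 9.39 on the Control arrays. The groups did not overlap, and the difference was 0.68 ± 0.15 (SE; limma, adjusted p = 0.16). Ifi214 had 4.95, 4.92 and 4.97 in Mist-targeted samples, against 4.54, 4.64 and 4.53 in Control samples, all only slightly above the array medians. Its difference was 0.38 ± 0.079 (SE; limma, adjusted p = 0.14), and the groups were apart. Ifi203-ps had overlapping groups and a difference of 0.39 ± 0.19. The letters GAAANNGAA and the core AAATNGAAA were both absent from the window of Ifi202b, and both were present in that of Ifi214. The letters TTCNNNGAA of the gamma-activated site were present in the window of Ifi202b and absent from that of Ifi214.

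**Figure D3:**
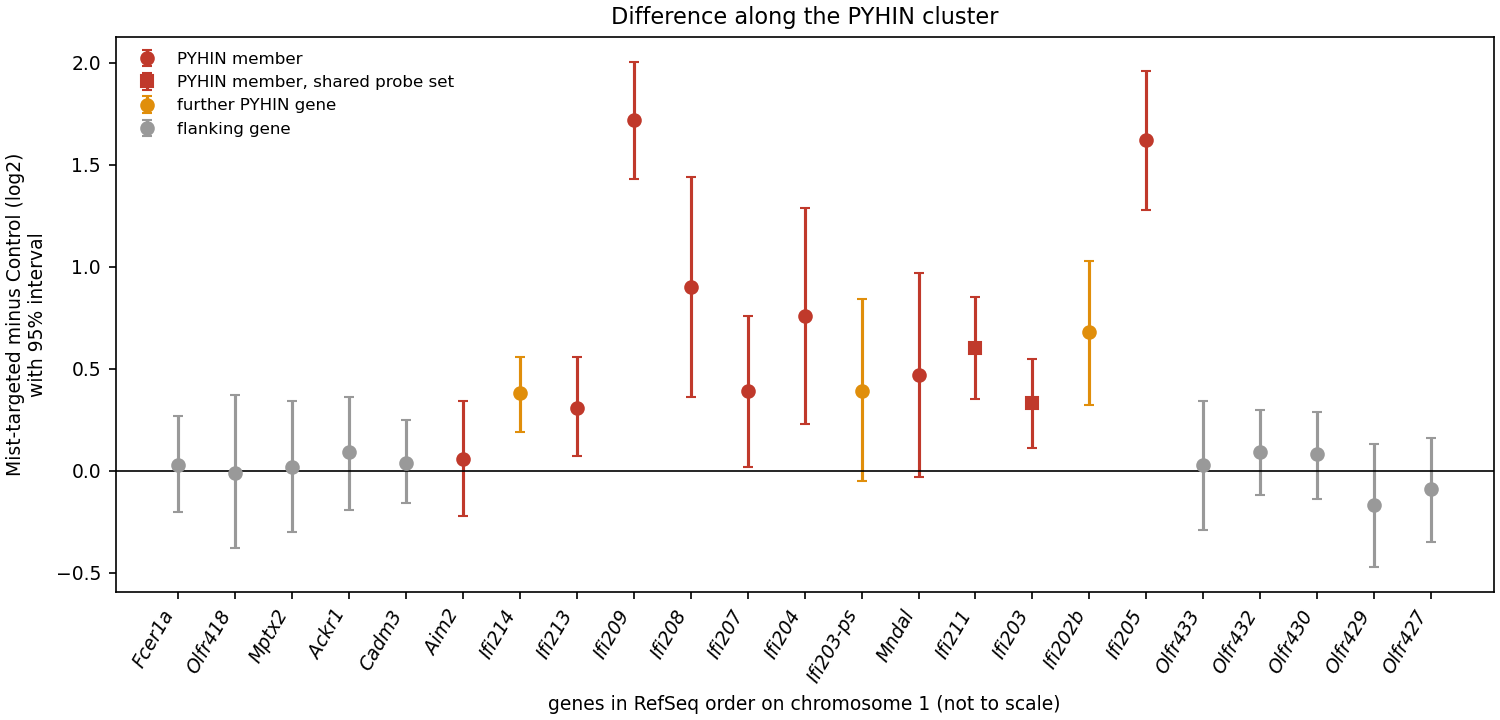
Difference in log2 expression, Mist-targeted minus Control, with its 95% interval (y axis) for PYHIN members (red, squares for shared probe sets), further family genes (orange) and 5 flanking genes per side (grey), in gene order along chromosome 1 and not to scale (x axis). Differences of the family lie between 0.06 and 1.72, and those of the flanking genes between -0.17 and 0.09.

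In gene order along chromosome 1 the cluster runs from Aim2 to Ifi205. Ifi209 lies inside it and Ifi205 at its far end, with members of smaller difference between them. The nearest 5 genes with a probe set on the Aim2 side were Cadm3, Ackr1, Mptx2, Olfr418 and Fcer1a, and on the Ifi205 side they were olfactory receptor genes, Olfr433, Olfr432, Olfr430, Olfr429 and Olfr427. Their differences ran between -0.17 and 0.09 with a median of 0.03, and the groups overlapped in 10 of 10. Of these 10 flanking genes 9 were below the array median on every array, so a change of a transcript at so low a level may not show. Cadm3, the gene next to Aim2, had 3.87, 4.01 and 3.91 on the Mist-targeted arrays, against 3.79, 3.94 and 3.94 on the Control arrays, which overlap.

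Partners of the family in the inflammasome were described from a list of 17 genes, of which 2 rose, 0 fell and 15 did not pass (limma, 0.128% of all probe sets rose), with a median of 0.14. The 2 were the cytokine genes Il1b (0.89 ± 0.12, SE; adjusted p = 0.039) and Il18 (0.87 ± 0.11; adjusted p = 0.039). Il1b had 4.87, 4.55 and 4.83 in Mist-targeted samples, against 3.94, 3.89 and 3.72 in Control samples. Its Control values were below the array medians, and its Mist-targeted values were only slightly above them. Il18 had 9.32, 9.08 and 9.26 in Mist-targeted samples, against 8.51, 8.30 and 8.24 in Control samples. Casp1, encoding caspase-1, had 11.05, 10.67 and 10.66 in Mist-targeted samples, against 10.57, 10.55 and 10.44 in Control samples, and a difference of 0.27 ± 0.12 (limma, adjusted p = 0.54). Pycard, encoding the adaptor ASC that AIM2 needs, had 4.59, 4.61 and 4.36 in Mist-targeted samples, against 4.35, 4.48 and 4.37 in Control samples. The Pycard groups overlapped close to the array medians (0.12 ± 0.10; adjusted p = 0.79), and RAW 264.7 cells are known for having little or no ASC.

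Among 23 measured genes of cytosolic DNA sensing 1 rose, 0 fell and 22 did not pass (limma, 0.128% of all probe sets rose), with a median of 0.13. The riser was Zbp1, a sensor of Z-form nucleic acid, with 9.36, 9.28 and 9.32 in Mist-targeted samples, against 8.001, 7.78 and 8.01 in Control samples. Its difference of 1.39 ± 0.094 (SE; limma, adjusted p = 0.0053) came with less spread between Mist-targeted arrays than most PYHIN members had. Cgas, the sensor that makes the second messenger cGAMP, differed by 0.33 ± 0.095 (adjusted p = 0.27), and Sting1, the receptor of cGAMP, by 0.17 ± 0.085 (adjusted p = 0.58). Irf7, a transcription factor of the interferon response, had 10.40, 10.37 and 10.61 in Mist-targeted samples, against 9.81, 9.89 and 9.82 in Control samples, and did not pass (0.62 ± 0.094; adjusted p = 0.061).

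Of 17 measured genes of type I interferon signalling 1 rose, 0 fell and 16 did not pass (limma, 0.128% of all probe sets rose), with a median of 0.04. Stat2, which carries the interferon signal to the nucleus, rose by 0.67 ± 0.079 (limma, adjusted p = 0.031). Its DNA-binding partner Irf9 differed by -0.002 ± 0.12 (95% interval -0.28 to 0.28). Ifnb1, the interferon beta gene, had 3.76, 3.79 and 3.51 in Mist-targeted samples, against 3.85, 3.81 and 3.45 in Control samples, below the array median in both groups. The groups overlapped (-0.02 ± 0.14; adjusted p = 0.99).

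Interferon-stimulated genes outside the family numbered 44 with a probe set, of which 6 rose, 1 fell and 37 did not pass (limma, 0.254% of all probe sets passed in either direction and 0.128% rose). The difference was positive in 43 of 44, as in 51.7% of all probe sets, with a median of 0.38. Igtp (1.01 ± 0.13) and Phf11b (0.95 ± 0.12) had the largest differences of those that rose (limma, adjusted p = 0.042 and 0.039), and Mx1 rose by 0.79 ± 0.088 (adjusted p = 0.025). Ifi27, named for its induction by interferon alpha, fell by 1.36 on the log2 scale (adjusted p = 0.0053). The median of the 10 PYHIN probe sets, 0.54, stood beside 0.38 for this list. Whether the 2 differ was not tested. Cell cycle and DNA damage checkpoint partners of PYHIN proteins were described from 5 measured genes, Cdkn1a, Rb1, E2f1, Mdm2 and Brca1. Of these 0 passed, where 0.254% of all probe sets passed. Brca1 differed by 0.50 ± 0.084 (limma, adjusted p = 0.08) and Rb1 by -0.26 ± 0.11 (adjusted p = 0.52).

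**Figure D4:**
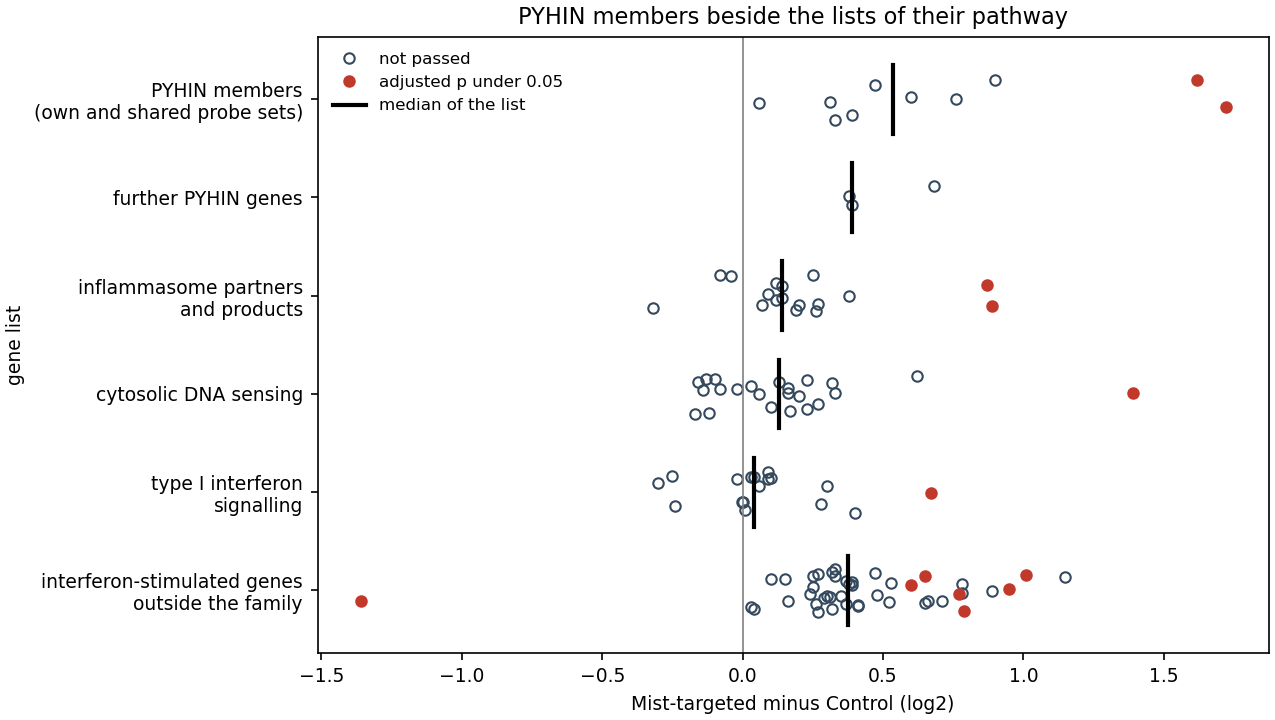
Difference in log2 expression, Mist-targeted minus Control (x axis), with a point per probe set for PYHIN members and for lists of their pathway (rows); filled red points passed at an adjusted p under 0.05, open points did not, and the black bar is the median of the row. Medians are 0.54 for the members, 0.14 for inflammasome genes, 0.13 for DNA sensing, 0.04 for interferon signalling and 0.38 for other interferon-stimulated genes.

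The genes whose pattern over the 6 arrays was most like the mean of the 8 members were, among 547 named genes with an SD of at least 0.3 over the arrays, Ms4a6c, Tlr8, Serpinb8, Il1b and Igtp. Pearson correlations, used here only to order genes, were 0.994, 0.993, 0.990, 0.986 and 0.985 over these 6 arrays, which fall into 2 groups, so that much of the likeness is the difference between the groups. Ms4a6c had 8.80, 8.28 and 8.57 on the Mist-targeted arrays, against 7.93, 7.88 and 7.85 on the Control arrays. As in most PYHIN members, its highest Mist-targeted value was on replicate 1 and its lowest on replicate 2. The choice by correlation over these arrays favours genes with this order. The endosomal receptor gene Tlr8 had 6.84, 6.20 and 6.39 in Mist-targeted samples, against 5.59, 5.48 and 5.47 in Control samples, with the same order of Mist-targeted arrays.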

How the data were processed

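RNA of 6 RAW 264.7 samples was measured on 1 expression array each. The deposited values are log2 expression per probe set; the submitters' processing notes name RMA, which corrects background, quantile-normalizes arrays and summarises probes, and the program Partek, but give no settings. Quantile normalization forces the arrays to the same distribution and would hide a shift of most transcripts in 1 direction. Probe sets were named from the platform annotation (23521 with 1 gene, 1814 with several, 16010 not listed). A gene was read at its own probe set with the highest mean over all arrays; each member had at most 1.

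Groups follow the GapmeR named in the labels. All 41345 probe sets were fitted with limma 3.58.1 in R 4.3.3 (group as the only term, two-sided), with Benjamini-Hochberg adjustment and a call at an adjusted p under 0.05. With 3 samples per group, p = 0.1 is the smallest value an exact permutation test allows. The script was tested on simulated data. Tables and plots used Python 3.11.15, pandas 2.3.3 and matplotlib 3.10.9. Promoter motifs were searched in 2 forms, the second 1 base shorter for a reason of format and after the counts of the first were known; counts of both are given. Members and lists were chosen with earlier results of these data known. Named genes are all members, up to 4 called genes per list by size or else the 2 with the smallest p, 11 genes fixed by name, 5 flanking genes per side and the 5 genes most like the members; Cadm3, Ms4a6c and Tlr8 values, and Ifi203-ps, were picked for printing from these. The fit was repeated with replicate number as a block, with trend and robust eBayes, with no moderation, leaving out the dimmest 40%, quantile normalization, median centring, array weights, listed probe sets only, other readings of the probe sets per gene and leaving out each array.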

Additional observations from a re-analysis of the deposited data

How the results depend on the processing

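The direction of the PYHIN differences held while the calls did not. The median over the 8 members, 0.62, ranged from 0.43 to 0.78 when 1 array was left out and from 0.60 to 0.62 under the other alternatives that keep the 8. It was 0.76 over the 7 members kept without the dimmest 40%, and 0.54 over 10 probe sets with the shared ones. Of 139 refits of single member probe sets 1 reversed, Aim2 at -0.07 without Mist-targeted replicate 1 (up to 0.14 without another array), 10 lost a call (of Ifi209 or Ifi205) and 3 gained one. Members called were 2 of 8, between 0 and 2 without 1 array. With the replicate block 0 members were called (limma; 7 at an unadjusted p under 0.05) and 0 of all probe sets (4368 unadjusted). Without moderation 0 members (4 unadjusted) and 0 probe sets (4106 unadjusted) were called. All probe sets called were 105, between 2 and 40 without 1 array, 287 with trend and robust, 161 without the dimmest 40% and 721 among the 25335 listed probe sets (2.85%). In that last setting Ifi208, the shared probe set of Ifi211 and Ifi204, Ifi202b and Ifi214 also passed. Fewer probe sets are tested there, and the moderation of the variances is refitted on them. The cause of this shift and of the others was not tested. The labels do not say whether same-numbered samples were paired. The correlations of their deviations were 0.201, 0.096 and 0.033, each the highest of its Mist-targeted sample. This is a hint from the data and not the design. No background signal was used, so low values such as those of Ifi213 limit what can be read.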
